A study of Mus musculus with 17 samples.

Results

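The Frizzled family is the set of cell surface receptors that bind secreted Wnt proteins, and the mouse genome has 10 of them, Fzd1 to Fzd10. All 10 were chosen by gene symbol among 24432 Ensembl gene identifiers measured by RNA-seq in 17 libraries of dissected embryonic kidney at E12.5. The rule uses no measured value, though the family was proposed with earlier results of these data known. The kidneys came from mice of mixed strain, and 3 genotypes were compared. In 5 libraries, named Foxd1-Cre here and labelled Ctnnb1-delta3 c/+;Foxd1, Cre recombinase driven in the stromal lineage acted on 1 copy of an activatable beta-catenin allele (CTNNB1 ex3/+). In 3 libraries, named Six2-Cre here and labelled Ctnnb1-delta3 c/+;Six2, the same allele was combined with Cre in the nephron progenitor lineage. The other 9 libraries were labelled wild-type, with no Cre or allele listed. Wild types 1 to 6 served as controls for Foxd1-Cre and wild types 7 to 9 for Six2-Cre, so the comparisons share no library. Each library is a whole kidney sample in which only 1 lineage and its descendants were targeted, so fewer cells of a type and less RNA per cell cannot be told apart. The labels do not say whether replicates are separate animals or litters, so p-values measure only the spread between these samples.

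Frizzled receptors span the membrane with a bundle of helices and catch Wnt proteins with an extracellular cysteine-rich domain. In the canonical branch a Wnt bridges a Frizzled to the coreceptor Lrp5 or Lrp6, the complex that destroys beta-catenin is disabled, and beta-catenin enters the nucleus and acts with TCF/LEF factors. Loss of exon 3 removes the phosphorylation sites that mark beta-catenin for destruction, so the pathway is switched on below the receptors. In the embryonic kidney, Wnt9b and Wnt11 are made by the ureteric bud and Wnt4 by the forming nephron. By protein sequence the family falls into subfamilies, and the results below follow them: Fzd1, Fzd2 and Fzd7; Fzd4, Fzd9 and Fzd10; Fzd3 and Fzd6; Fzd5 and Fzd8.

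The nearest relatives in the family share stretches of coding sequence, which bears on how reads are divided among them. The longest run held in common by the Fzd1, Fzd2 and Fzd7 transcripts of GENCODE mouse release 21 is 35 bases long and lies in the part that encodes the cysteine-rich domain. It is printed in capitals with 24 bases on each side, at chr5:4756949-4757031 on the minus strand for Fzd1, chr11:102605080-102605162 on the plus strand for Fzd2 and chr1:59483323-59483405 on the plus strand for Fzd7 (GRCm38).
Fzd1: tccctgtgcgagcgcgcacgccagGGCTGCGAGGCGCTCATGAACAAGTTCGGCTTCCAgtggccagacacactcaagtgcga
Fzd2: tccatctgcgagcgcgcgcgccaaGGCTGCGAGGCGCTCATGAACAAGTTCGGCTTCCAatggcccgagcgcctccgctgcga
Fzd7: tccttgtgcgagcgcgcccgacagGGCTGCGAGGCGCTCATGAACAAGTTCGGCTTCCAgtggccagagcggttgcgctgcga
Of all 31-base words in the Fzd1 transcript, 1.61% also occurred in Fzd2 or Fzd7. The share was 1.9% for Fzd2 and 0.777% for Fzd7. Fzd10, Fzd8 and Fzd9 shared no such word with another transcript. Fzd1, Fzd2 and Fzd7 are intronless genes in this annotation, as are Fzd8, Fzd9 and Fzd10.

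The upstream sequences of the receptors that rose are shown because their transcripts were higher in the mutants. RefSeq windows of 250 bases before the transcript start were at hand for 6 members (Fzd1, Fzd4, Fzd5, Fzd7, Fzd9 and Fzd10; build GRCm38.p6). Capitals mark the 5-letter core CTTTG of TCF/LEF-type motifs, or CAAAG where it lies on the opposite strand. The Fzd1 window is chr5:4758217-4758466 on the minus strand and the Fzd7 window is chr1:59481897-59482146 on the plus strand. The Fzd10 window lies inside the gene as GENCODE draws it, so only 29 bases around its core are given, at chr5:128600956-128600984 on the plus strand.
Fzd1: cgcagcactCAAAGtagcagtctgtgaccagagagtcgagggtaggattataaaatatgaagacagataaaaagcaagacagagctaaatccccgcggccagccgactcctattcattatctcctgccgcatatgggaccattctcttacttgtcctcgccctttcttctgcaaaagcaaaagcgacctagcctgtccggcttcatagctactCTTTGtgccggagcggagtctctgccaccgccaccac
Fzd7: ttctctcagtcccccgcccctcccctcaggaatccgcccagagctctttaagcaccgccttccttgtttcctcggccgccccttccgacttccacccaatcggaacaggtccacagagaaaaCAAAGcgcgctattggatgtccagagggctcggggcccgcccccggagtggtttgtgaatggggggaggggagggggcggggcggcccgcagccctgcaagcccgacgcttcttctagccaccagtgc
Fzd10: ggaagaagaggcCAAAGtttgcgcgctga
Fzd1 held 2 cores, with first bases at -37 and -241 from the RefSeq start. Fzd7 held 1 at -128 and Fzd10 held 1 at -138. Fzd4, Fzd5 and Fzd9 held none, though 183 of the 250 bases for Fzd9 and 11 for Fzd4 also lie inside the gene as GENCODE draws it. The core is short, and 48.8% of 27025 promoter windows of the same length held it on either strand. The 4 longer forms, in which the core is followed by AT, AA, TT or TA, were also searched on both strands, and each contains the core. The Fzd7 match read CTTTGTT on the minus strand, and 14.9% of all windows held at least 1 of these 4 forms. The matches in Fzd1 (CTTTGTG and CTTTGAG) and Fzd10 (CTTTGGC) were none of them. These are matches of letters in a short window, and binding was not measured.

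Expression is given as FPKM, fragments per kilobase of transcript scaled to sequencing depth, which corrects for transcript length and so allows levels of different genes to be set side by side. Changes are differences of log2(FPKM + 1) between group means, tested with limma and adjusted over all genes tested by the Benjamini-Hochberg method, with adjusted p under 0.05 called a change. The scale understates the change of low genes. The 2 library sets differed in depth: 5312 to 5807 genes were listed at 0 in the 11 libraries with wild types 1 to 6, and 7590 to 7891 in the 6 with wild types 7 to 9. The steps between low FPKM values imply about 31800000 to 41400000 reads in the first set and 5780000 to 6340000 in the second. Axin2, a feedback target of beta-catenin, stood at 68.0 ± 6.8 FPKM in Foxd1-Cre (SD, n = 5) against 10.1 ± 0.571 in wild types 1 to 6 (n = 6), and at 36.5 ± 4.08 in Six2-Cre (n = 3) against 13.0 ± 0.538 in wild types 7 to 9 (n = 3). Kidney lineage markers were present in wild types 7 to 9, with Six2 at 80.8 ± 8.95 and Foxd1 at 74.1 ± 6.73 FPKM. Six2 stood at 18.0 ± 0.266 FPKM in Six2-Cre, and Foxd1 at 19.9 ± 3.32 in Foxd1-Cre against 102 ± 7.97 in wild types 1 to 6. Ctnnb1, the targeted gene, stood at 509 ± 13.2 FPKM in Foxd1-Cre against 463 ± 35.0 (log2 change 0.14, limma adjusted p = 0.105). In Six2-Cre it stood at 406 ± 7.05 against 343 ± 16.5 FPKM (0.24, limma adjusted p = 0.0213), a call lost without Six2-Cre 1, 2 or 3 or wild type 9 (adjusted p 0.0557 to 0.0772). Gene-level FPKM cannot show the loss of its exon 3.

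In wild-type kidneys 3 members of 1 subfamily supplied most Frizzled transcripts. In wild types 1 to 6, Fzd2 stood at 56.2 ± 5.7 FPKM (SD, n = 6), Fzd7 at 48.8 ± 6.22 and Fzd1 at 36.8 ± 5.18. Together they made up 77.7% ± 2.23 of the summed FPKM of the family. The order went on with Fzd4 (19.1 ± 2.32 FPKM), Fzd3 (7.08 ± 1.13), Fzd8 (5.37 ± 0.42), Fzd6 (4.45 ± 0.606), Fzd10 (3.04 ± 0.3), Fzd9 (0.711 ± 0.0969) and Fzd5 (0.66 ± 0.0728). Neighbours whose libraries overlapped, and which are therefore not separated, were Fzd2 with Fzd7, Fzd7 with Fzd1, Fzd3 with Fzd8, Fzd8 with Fzd6, and Fzd9 with Fzd5.

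Wild types 7 to 9 gave the same order except that Fzd5 (1.12 ± 0.203 FPKM, SD, n = 3) stood above Fzd9 (0.209 ± 0.0382). Fzd7, Fzd8, Fzd6 and Fzd2 lay within 0.933 to 1.09 times their level in wild types 1 to 6, and Fzd10 held 3.46 ± 0.99 FPKM. Fzd1 lay at 0.801 times, Fzd4 at 1.38 times and Fzd5 at 1.7 times. The widest gap above was that of Fzd3, a receptor best known for planar cell polarity and axon guidance, at 2.73 times, 19.3 ± 1.28 against 7.08 ± 1.13 FPKM. The 3 libraries of the later set, at 18.4, 20.8 and 18.7 FPKM, all lay above the highest of the first 6, 8.31. Fzd9 lay at 0.294 times, on few reads in the second set. All 9 libraries carry the same labels, and each mutant is tested against wild types of its own set.

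**Figure D1:**
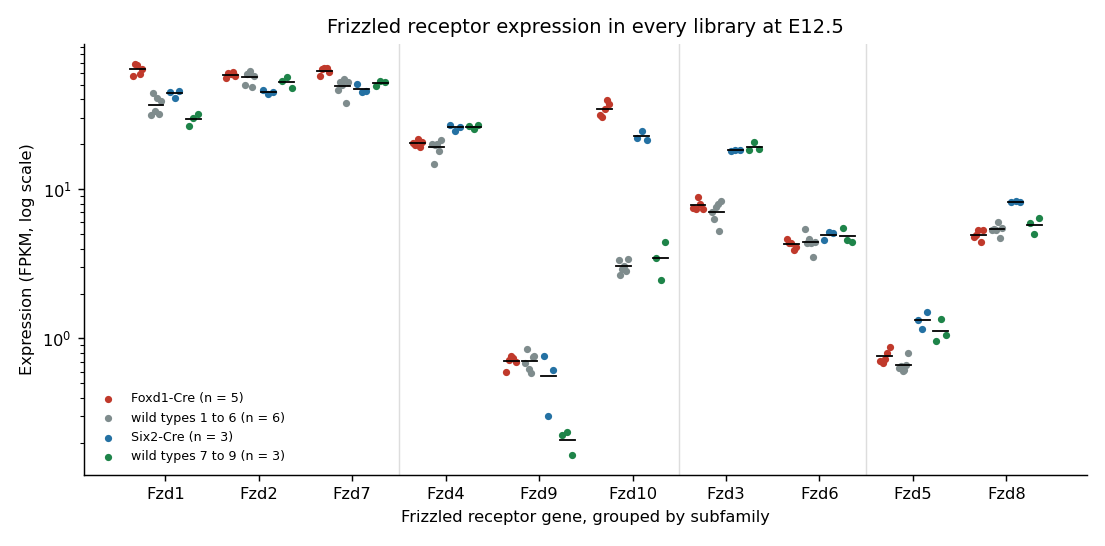
FPKM on a log axis of the 10 Frizzled genes in all 17 libraries, with subfamilies separated by vertical lines, points for libraries, colours for the 4 groups and black bars for group means. Fzd10 goes from means of 3.04 and 3.46 FPKM in the wild-type sets to 34.7 in Foxd1-Cre and 22.7 in Six2-Cre, while Fzd3 points lie near 7 FPKM in the first set of libraries and near 19 in the second.

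Activated beta-catenin in either lineage was accompanied by higher Fzd10 and Fzd1, and each mutant had 1 further member that rose: Fzd7 in Foxd1-Cre and Fzd8 in Six2-Cre. By limma, 0 members fell, where 4.82% of all genes fell in Foxd1-Cre and 5.84% in Six2-Cre; at an unadjusted p under 0.05, 0 were lower in Foxd1-Cre and 1, Fzd2, in Six2-Cre. In Foxd1-Cre, 3 of the 9 members that passed the filter on low values rose (Fzd10, Fzd1 and Fzd7), where 13.3% of all 13996 genes tested were called and 8.45% rose. In Six2-Cre, 3 of 9 rose (Fzd10, Fzd1 and Fzd8), where 13.8% of 13828 genes were called and 7.93% rose. Both Fzd10 and Fzd1 rose in both, as did 2.71% of the 13810 genes tested in both. The median log2 change of the 9 members was 0.1 in Foxd1-Cre and 0.03 in Six2-Cre, beside -0.008 and -0.009 over all genes, so the changes sat in a few receptors. Libraries of the groups did not overlap for the same 3 members in Foxd1-Cre, all higher, where 6.89% of genes lay apart and higher and 3.8% apart and lower. In Six2-Cre, Fzd10, Fzd1 and Fzd8 lay apart and higher, as did 18.0% of genes, and Fzd2 and Fzd3 apart and lower, as did 17.7%. Fzd9 did not pass the filter, and Fzd5 passed only through 5 libraries of the second set, 3 of Six2-Cre and 2 wild types. Over all genes in Foxd1-Cre, 1182 rose and 674 fell; with libraries rescaled to the same sum 1231 rose and 408 fell, and with quantile normalisation 1019 rose and 899 fell, and the same number of members, 3, was called each time.

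**Figure D2:**
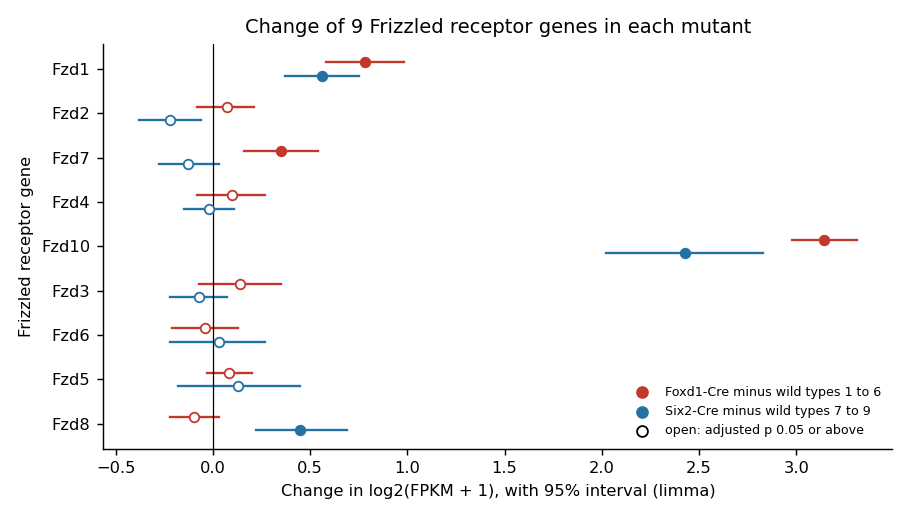
Change in log2(FPKM + 1) with its 95% interval from limma for the 9 Frizzled genes tested, in Foxd1-Cre (red) and Six2-Cre (blue) against their own wild types, filled where adjusted p is under 0.05. Fzd10 stands far to the right at 3.14 and 2.43, Fzd1 is filled in both mutants, Fzd7 only in red and Fzd8 only in blue.

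Fzd10 was the most strongly changed receptor in both mutants. The gene (ENSMUSG00000081683, chr5:128600844-128604093, plus strand, GRCm38) is an intronless member of the Fzd4 subfamily and is activated by canonical Wnts. The 5 Foxd1-Cre libraries held 31.2, 30.6, 34.6, 39.9 and 37.1 FPKM, and wild types 1 to 6 ran from 2.65 to 3.42 with a median of 2.97. The lowest mutant library lay far above the highest wild type. The log2 change was 3.14 ± 0.08 (SE; limma adjusted p = 2.65e-10), an 11.4-fold ratio of mean FPKM. Only 9 of 13996 genes had a higher log2 change, as Fzd10 ranked 10 from the top.

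In Six2-Cre, Fzd10 stood at 21.9, 24.6 and 21.5 FPKM against 3.48, 2.47 and 4.45 in wild types 7 to 9. All 3 mutant libraries again lay well above all 3 wild types. The log2 change was 2.43 ± 0.17 (limma adjusted p = 0.000966), a 6.55-fold ratio that ranked 36 of 13828 genes. The reads implied for the gene were 386 to 472 in Six2-Cre and 46 to 80 in its controls, compared with 3431 to 3869 in Foxd1-Cre and 282 to 389 in its controls. The change was larger in Foxd1-Cre by 0.71 ± 0.18 on the log2 scale (95% interval 0.30 to 1.13, limma-based adjusted p = 0.0396). That call ended in 10 of 28 alternatives, among them leaving out Six2-Cre 1 (adjusted p = 0.121), Six2-Cre 2 (0.0843), Six2-Cre 3 (0.131), wild type 7 (0.113), wild type 9 (0.0559) or Foxd1-Cre 4 (0.0531). Across all genes, 11.0% of 13810 were called for this difference, 5.76% with the higher change in Foxd1-Cre and 5.24% with the higher change in Six2-Cre. Among the 9 members tested, 3 were called: Fzd10 and Fzd7 higher in Foxd1-Cre, and Fzd8 higher in Six2-Cre.

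Fzd1 rose in both mutants by less than 1 on the log2 scale. The gene (ENSMUSG00000044674, chr5:4753839-4758035, minus strand) lies on the same chromosome as Fzd10 and Fzd9 and encodes a receptor for canonical Wnts. Foxd1-Cre libraries held 57.3, 69.5, 67.9, 59.2 and 63.8 FPKM, and wild types 1 to 6 ran from 31.6 to 44.0 with a median of 36.2. The 5 mutants lay above all 6 wild types, and the log2 change was 0.78 ± 0.09 (limma adjusted p = 0.000125; 1.72-fold). In Six2-Cre the values were 45.0, 40.8 and 45.6 FPKM against 26.7, 30.0 and 31.8. Here too the groups were apart, and the log2 change was 0.56 ± 0.08 (limma adjusted p = 0.00788; 1.48-fold). The difference between the mutants was 0.22, with a 95% interval of -0.03 to 0.48 (limma-based adjusted p = 0.287), so neither equal nor unequal rises can be told from it. Fzd1 had been below Fzd2 in every wild-type library, with a ratio of 0.655 ± 0.0598 in wild types 1 to 6 and 0.566 ± 0.0856 in wild types 7 to 9. The ratio was 1.08 ± 0.0797 in Foxd1-Cre and 0.979 ± 0.0395 in Six2-Cre.

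Fzd7 rose in Foxd1-Cre and was not called in Six2-Cre. This receptor (ENSMUSG00000041075, chr1:59482424-59486955, plus strand) is widely expressed in progenitor tissues and signals through both branches of the pathway. It stood at 57.0, 63.6, 64.5, 65.1 and 60.7 FPKM in Foxd1-Cre, and wild types 1 to 6 ran from 37.6 to 55.0 with a median of 50.8. The mutants lay just above the highest wild type, and the log2 change was 0.35 ± 0.08 (limma adjusted p = 0.0172; 1.27-fold). In Six2-Cre it stood at 51.0, 45.1 and 45.2 FPKM against 49.0, 52.7 and 52.6. These groups overlapped, and the log2 change was -0.13 ± 0.06 (95% interval -0.28 to 0.03, limma adjusted p = 0.24). The difference between the mutants was itself called, at 0.48 ± 0.11 (95% interval 0.26 to 0.70, limma-based adjusted p = 0.00593), and it stayed called in all 28 alternatives.

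Fzd2, the highest Frizzled by mean in both wild-type sets though not separated from its close relative Fzd7, was not called in either mutant. The gene (ENSMUSG00000050288, chr11:102604396-102608058, plus strand) held 56.0, 60.1, 59.0, 60.6 and 57.6 FPKM in Foxd1-Cre and 48.4 to 62.1, median 58.5, in wild types 1 to 6. The mutants lay inside the wild-type range, with a log2 change of 0.07 (95% interval -0.08 to 0.21, limma adjusted p = 0.582). In Six2-Cre it held 46.3, 43.3 and 44.6 FPKM against 53.0, 56.4 and 47.9, all 3 below all 3 wild types. The log2 change was -0.22 ± 0.07 (95% interval -0.38 to -0.06) and missed the threshold at a limma adjusted p of 0.0816. Without wild type 9 it passed, at -0.28 with an adjusted p of 0.0347. The difference between the mutants was 0.29 ± 0.09 (95% interval 0.09 to 0.49, limma-based adjusted p = 0.0583), and it passed without wild type 3 (adjusted p = 0.0495), 4 (0.0382) or 9 (0.0132). Groups of 3 and 3 libraries were apart for 35.7% of all genes in the Six2-Cre comparison and for 10.7% of genes in the Foxd1-Cre comparison of 5 and 6.

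Fzd8 showed the opposite pattern to Fzd7. Its gene (ENSMUSG00000036904, chr18:9212163-9218136, plus strand) encodes a canonical receptor closest to Fzd5. Six2-Cre libraries held 8.22, 8.35 and 8.2 FPKM against 5.95, 4.98 and 6.44 in their wild types, with no overlap. The log2 change was 0.45 ± 0.10 (limma adjusted p = 0.03; 1.43-fold). This call ended without Six2-Cre 1 (adjusted p = 0.0865), Six2-Cre 2 (0.094), Six2-Cre 3 (0.0939), wild type 7 (0.073) or wild type 8 (0.0582), and so rests on every library but wild type 9. In Foxd1-Cre it held 4.81, 4.93, 5.31, 4.41 and 5.32 FPKM, and wild types 1 to 6 ran from 4.74 to 6.06 with a median of 5.35. The groups overlapped, and the log2 change was -0.10 (95% interval -0.22 to 0.03, limma adjusted p = 0.344). The difference between the mutants was -0.55 ± 0.11 (95% interval -0.80 to -0.30, limma-based adjusted p = 0.00914) and stayed called in all 28 alternatives.

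**Figure D3:**
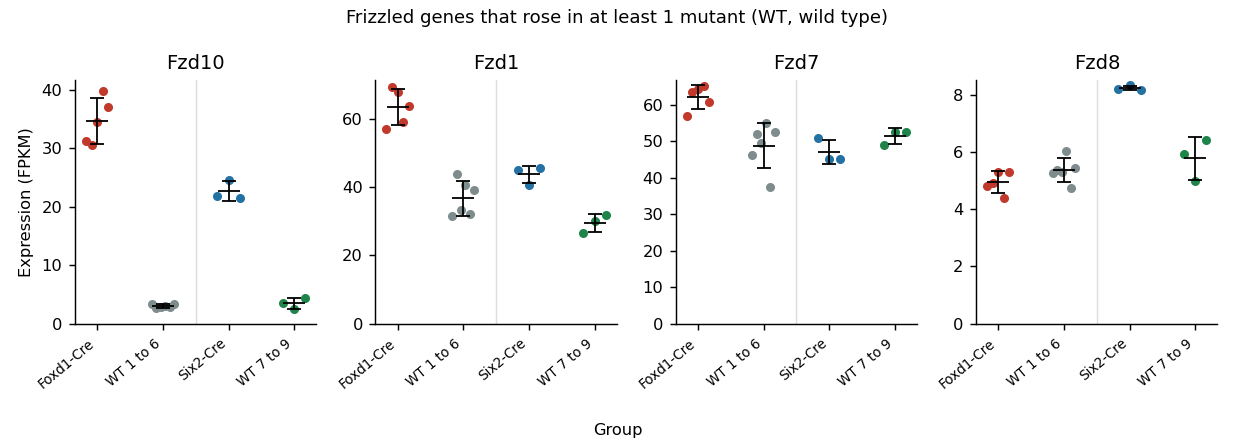
FPKM by library of the 4 Frizzled genes that rose in at least 1 mutant, with group means and SD as bars and a vertical line between the sets of libraries. Mutant points lie apart from their wild types for Fzd10 and Fzd1 on both sides of the line, for Fzd7 only on the left and for Fzd8 only on the right.

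Fzd4, a relative of Fzd10, was not called in either mutant. Fzd4 (ENSMUSG00000049791, chr7:89404355-89413134, plus strand) is the receptor that Norrin uses in the vascular bed of the retina and has a role in endothelium. It stood at 20.5, 19.7, 21.8, 19.1 and 20.7 FPKM in Foxd1-Cre and at 14.8 to 21.3, median 20.0, in wild types 1 to 6. In Six2-Cre it stood at 26.9, 24.7 and 26.2 FPKM against 26.6, 25.2 and 26.9. Both pairs of groups overlapped, with log2 changes of 0.10 (95% interval -0.08 to 0.27) and -0.02 (-0.15 to 0.11). In the same Six2-Cre libraries 19 of 20 endothelial markers rose, with a median log2 change of 0.76, and the sum of their FPKM ran from 403 to 430 against 225 to 256.

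Fzd9 (ENSMUSG00000049551, chr5:135248938-135251230, minus strand) was low in both library sets and near the limit of detection in the second. It held 0.596 to 0.766 FPKM in Foxd1-Cre and 0.589 to 0.856 in wild types 1 to 6, with 45 to 62 and 39 to 62 implied reads, and the exact two-sided permutation test of the means gave p = 0.894. In Six2-Cre it held 0.757, 0.303 and 0.614 FPKM against 0.225, 0.236 and 0.165, which were 4 to 9 implied reads against 2 to 3. The mutants lay above the wild types, and the exact permutation p of 0.1 is the smallest that 3 against 3 libraries can give. Adjusted over the pair of tests it was 0.2. With no filter on low values, limma gave an adjusted p of 0.138.

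Fzd3 and Fzd6, the receptors of planar cell polarity, were not called in either mutant. Fzd3 (ENSMUSG00000007989, chr14:65192449-65262463, minus strand) ran from 7.41 to 8.82 FPKM in Foxd1-Cre and from 5.26 to 8.31 in wild types 1 to 6, an overlap, with a log2 change of 0.14 (95% interval -0.07 to 0.35, limma adjusted p = 0.426). In Six2-Cre it held 18.1, 18.3 and 18.4 FPKM against 18.4, 20.8 and 18.7. The log2 change was -0.07 (95% interval -0.22 to 0.07, limma adjusted p = 0.467), and the highest mutant and the lowest wild type were both at 18.4 after rounding. Fzd6 (ENSMUSG00000022297, chr15:39006034-39038188, plus strand) ran from 3.94 to 4.67 FPKM in Foxd1-Cre and from 3.51 to 5.41 in wild types 1 to 6, and held 4.55, 5.14 and 5.1 in Six2-Cre against 5.47, 4.6 and 4.44. Its groups overlapped in both comparisons, with log2 changes of -0.04 (95% interval -0.21 to 0.13) and 0.03 (-0.22 to 0.27). Other annotated genes overlap Fzd3, Fzd6 and Fzd5, and the use of strand in counting is not given in the sources used here, so their levels are less certain.

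Fzd5 (ENSMUSG00000045005, chr1:64730558-64737751, minus strand), the relative of Fzd8, was low throughout. It ran from 0.688 to 0.876 FPKM in Foxd1-Cre and from 0.601 to 0.801 in wild types 1 to 6, where wild type 6 stood apart at the top. In Six2-Cre it held 1.32, 1.15 and 1.5 FPKM against 0.964, 1.35 and 1.06. Both pairs of groups overlapped, and the log2 changes were 0.08 (95% interval -0.03 to 0.20) and 0.13 (-0.18 to 0.45).

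The summed FPKM of the family was higher in both mutants, and its make-up shifted towards Fzd10. In Foxd1-Cre the sum was 258 ± 10.5 FPKM (SD, n = 5; 240 to 268) against 182 ± 17.2 (n = 6; 154 to 201). Of the gain of 75.7 FPKM, Fzd10 gave 31.6, Fzd1 26.7 and Fzd7 13.3. In Six2-Cre the sum was 218 ± 6.15 FPKM (n = 3; 212 to 224) against 194 ± 4.4 (n = 3; 190 to 199). Here Fzd10 gave 19.2 and Fzd1 14.3 FPKM, while the difference for Fzd2 was -7.72 and for Fzd7 -4.36, and the sum differed by 23.2. Without Fzd10 the sums were 223 ± 9.62 against 179 ± 17.2 FPKM in Foxd1-Cre and 195 ± 7.49 against 191 ± 4.95 in Six2-Cre. The former groups stayed apart and the latter overlapped, at 187 to 202 against 186 to 196.

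Fzd10 made up 1.68% ± 0.218 of the family sum in wild types 1 to 6 and 13.4% ± 1.37 in Foxd1-Cre. The share was 1.79% ± 0.523 in wild types 7 to 9 and 10.4% ± 1.03 in Six2-Cre. It moved from place 8 in the order of levels to place 4 in Foxd1-Cre and place 5 in Six2-Cre. The share of Fzd1, Fzd2 and Fzd7 together was 71.5% ± 1.38 in Foxd1-Cre and 62.3% ± 1.25 in Six2-Cre, against 77.7% ± 2.23 and 68.6% ± 1.2. Fzd1 became the highest member by mean in Foxd1-Cre, though its libraries overlapped those of Fzd7, and Fzd7 those of Fzd2. These shares are descriptions of transcript levels and carry no test.

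**Figure D4:**
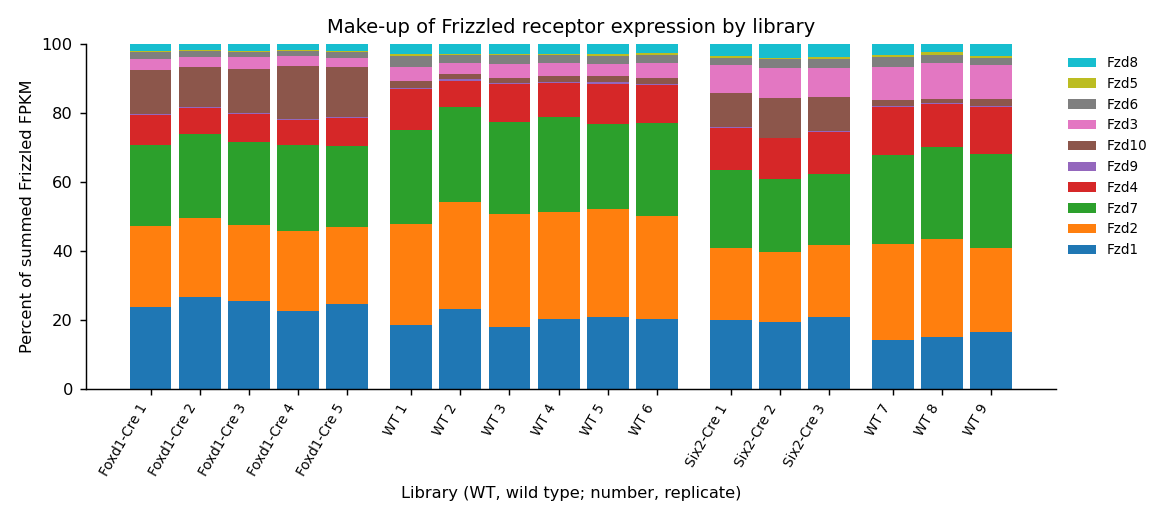
Percent of the summed Frizzled FPKM given by each of the 10 members, 1 bar for each library in its group. The brown band of Fzd10 is thin in all 9 wild types, 1.24% to 2.29%, and wide in all 8 mutants, 9.78% to 15.2%.

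The genes whose profile over the 17 libraries was most like that of Fzd10 were Wif1, Nkd1 and Mab21l1, among 12875 genes compared. Likeness is the root mean square difference of log2(FPKM + 1) after subtracting the mean of the own wild types, so a smaller value is closer. It was 0.164 for Wif1, which encodes a secreted Wnt inhibitor, 0.297 for Nkd1, an inhibitor that binds Dishevelled, and 0.371 for Mab21l1. Mab21l1 reached 1 FPKM in mutant libraries only, and so passed the filter through the groups where it is high. Its likeness to Fzd10 therefore carries no weight. Wif1 stood at 12.1 FPKM in Foxd1-Cre against 0.61, and at 11.3 in Six2-Cre against 1.19. For Fzd1 the nearest were Tubb2a (0.12), a tubulin gene, Ednrb (0.12), an endothelin receptor, and Prkg1 (0.123), a cyclic GMP-dependent kinase. For Fzd8 they were Hunk (0.0748), Mpp2 (0.0753) and Rasa3 (0.0854). Hunk, a kinase gene, had log2 changes of -0.08 in Foxd1-Cre and 0.46 in Six2-Cre.

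Among coreceptors, Gpc4, Ror1 and Reck rose in both mutants. Of 11 coreceptors and alternative Wnt receptors, 5 rose and 1 fell in Foxd1-Cre (median log2 change 0.19), and 7 rose in Six2-Cre (0.39) with 0 lower at an unadjusted p under 0.05, beside medians of -0.008 and -0.009 over all genes. Over all genes too more rose than fell, 8.45% against 4.82% in Foxd1-Cre and 7.93% against 5.84% in Six2-Cre. Lrp6 was not called in either, at 0.05 (limma adjusted p = 0.768) and -0.05 (0.456). Lrp5 was not called in Foxd1-Cre, at 0.12 (0.253), and passed in Six2-Cre at 0.25 (0.04), a call lost when any single library of that comparison was left out (adjusted p 0.0503 to 0.121). Gpc4, a glypican that holds Wnts at the cell surface, rose in both by 0.93 ± 0.10 (limma adjusted p = 7.53e-05) and 1.05 ± 0.11 (0.00278). Ror1, a receptor tyrosine kinase for Wnt5a, also rose in both, by 0.48 (0.00959) and 0.55 (0.0134). Reck, which acts with Adgra2 in Wnt7 reception by endothelium, rose by 0.41 in Six2-Cre (limma adjusted p = 0.00738) and by 0.28 in Foxd1-Cre (0.0219), the latter lost without Foxd1-Cre 3 (0.062) or 4 (0.0577).

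The partner of Fzd4 and the polarity receptor Ptk7 differed between the mutants. Tspan12, the tetraspanin that works with Fzd4 in Norrin signalling, rose by 0.73 ± 0.06 in Six2-Cre (limma adjusted p = 0.00134) and fell by 0.24 ± 0.07 in Foxd1-Cre (0.0312). The Foxd1-Cre call ended without any 1 of 5 libraries, Foxd1-Cre 1 or 5 or wild type 2, 3 or 4 (adjusted p 0.0521 to 0.0772). The difference between the mutants was -0.98 ± 0.09 (limma-based adjusted p = 9.55e-07). Ptk7, a pseudokinase receptor of planar polarity, rose by 0.31 in Foxd1-Cre (limma adjusted p = 0.00546) and was not called in Six2-Cre at -0.06 (0.532), with a difference of 0.36 (0.00663).

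Rnf43 and Lgr4, which act on the removal of Frizzled receptors from the cell surface, rose in Foxd1-Cre and fell in Six2-Cre. Rnf43 and Znrf3 are ubiquitin ligases that send Frizzleds to lysosomes, and Lgr4 is a receptor for R-spondins, which block those ligases. In Foxd1-Cre, Znrf3 rose by 0.65 ± 0.10 (limma adjusted p = 0.000811), Rnf43 by 0.49 ± 0.09 (0.00377) and Lgr4 by 0.66 ± 0.05 (7.22e-06). In Six2-Cre, Lgr4 fell by 0.47 ± 0.06 (limma adjusted p = 0.00601) and Rnf43 fell by 0.59 ± 0.10 (0.0147), while Znrf3 was not called at -0.12 (0.381). The Rnf43 fall was lost without Six2-Cre 2 or 3 or wild type 7 or 8 (adjusted p 0.0522 to 0.0565). The differences between the mutants were called for Lgr4 (1.13 ± 0.08), Rnf43 (1.08 ± 0.14) and Znrf3 (0.78 ± 0.13). Over the list of 11 turnover and trafficking genes, 3 rose and 1 fell in Foxd1-Cre (median log2 change 0.07) and 1 rose and 3 fell in Six2-Cre (-0.16).

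Shisa proteins hold Frizzleds in the endoplasmic reticulum and keep them from the surface. Shisa3 stood at 86.3 ± 7.57 FPKM in Foxd1-Cre against 186 ± 13.4, a log2 change of -1.10 ± 0.06 (limma adjusted p = 3.26e-07). In Six2-Cre it stood at 189 ± 9.45 against 145 ± 11.6 FPKM, a log2 change of 0.38 ± 0.07 (0.0183) that was lost without Six2-Cre 1 or 2 or wild type 7 or 9 (adjusted p 0.0527 to 0.0609). Shisa2 fell by 0.57 ± 0.07 in Six2-Cre (limma adjusted p = 0.00416) and was not called in Foxd1-Cre at -0.07 (0.557). Fzd7, Shisa3 and Rnf43 thus each had a called difference between the mutants, of 0.48, -1.47 and 1.08.

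**Figure D5:**
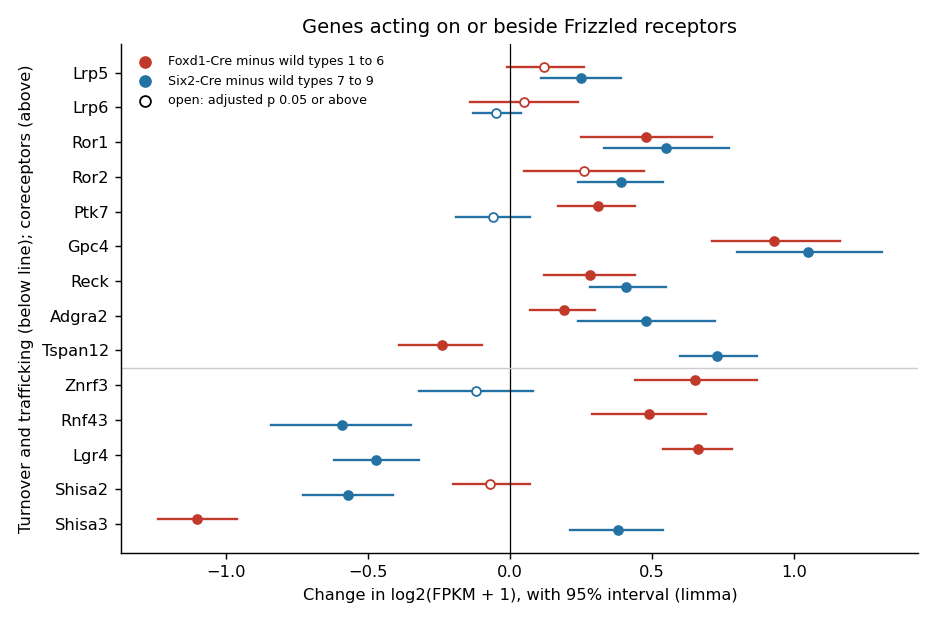
Change in log2(FPKM + 1) with its 95% interval from limma for coreceptors (above the line) and genes of Frizzled turnover and trafficking (below it), in Foxd1-Cre (red) and Six2-Cre (blue), filled where adjusted p is under 0.05. Rnf43 and Lgr4 lie to the right in Foxd1-Cre and to the left of 0 in Six2-Cre, and Shisa3 and Tspan12 show the reverse order. Znrf3 lies to the right in Foxd1-Cre, and its interval in Six2-Cre, -0.32 to 0.08, spans 0.

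Among the ligands that Frizzleds bind, Wnt4 and Wnt5a rose in both mutants. Of 20 ligand genes, 12 passed the filter, and 4 rose and 1 fell in each mutant (median log2 changes 0.14 and 0.19). These counts include Wnt2b in both mutants and Wnt7a in Six2-Cre, which reached 1 FPKM in mutant libraries only and so passed the filter through the groups where they are high; their values are given with no test. Wnt4, which drives nephron formation, rose by 0.81 ± 0.08 in Foxd1-Cre (limma adjusted p = 3.16e-05) and by 0.72 ± 0.07 in Six2-Cre (0.00203). Wnt5a, a noncanonical ligand, stood at 13.6 ± 2.23 FPKM against 5.91 ± 0.662 in Foxd1-Cre and rose by 1.08 ± 0.10 (limma adjusted p = 1.28e-05). Its rise in Six2-Cre was 0.51 ± 0.11 (0.027) and was lost without any Six2-Cre library or without wild type 8 or 9 (adjusted p 0.0611 to 0.0938). Wnt2b, a stromal ligand, stood at 1.22 ± 0.387 FPKM in Foxd1-Cre against 0.527 ± 0.131, and at 1.61 ± 0.303 in Six2-Cre against 0.186 ± 0.098. Wnt11 rose by 0.40 in Foxd1-Cre (0.00589) and was not called in Six2-Cre at 0.25 (0.333). Wnt7a was near 0 in both wild-type sets, at 0.0311 and 0.0527 FPKM, and stood at 1.93 ± 0.746 in Six2-Cre. Wnt9b, the ureteric bud signal, fell by 0.75 ± 0.14 in Six2-Cre (0.0207), lost without Six2-Cre 2 or 3 or wild type 7 or 8 (adjusted p 0.0511 to 0.0725), and was not called in Foxd1-Cre at -0.03 (0.833). In Six2-Cre, 8 of 13 ureteric bud markers fell, with a median log2 change of -0.40.

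Among genes for other proteins that carry a Frizzled-type cysteine-rich domain, secreted or bound to membranes, Frzb rose in both mutants. Of 9 such genes 8 passed the filter, of which 5 rose and 1 fell in Foxd1-Cre (median log2 change 0.66) and 3 rose and 0 fell in Six2-Cre (0.24), where 2 were lower at an unadjusted limma p under 0.05. Corin and Cpz reached 1 FPKM in mutant libraries only, and Mfrp in 5 Foxd1-Cre libraries and 1 wild type, so they passed the filter through the groups where they are high, and they are among the genes counted; their values are given with no test. Whether the lists as wholes differ between the mutants was not tested. A difference was called for 2 of the 8 genes, Col18a1 (0.68 ± 0.14, limma-based adjusted p = 0.00524) and Corin. Because Corin passed the filter only through Foxd1-Cre libraries, its call is counted but carries no weight. Frzb, a decoy that binds Wnts, rose in both by 1.20 ± 0.09 (limma adjusted p = 3.44e-06) and 0.95 ± 0.12 (0.00596). Col18a1, a basement membrane collagen with a Frizzled-type domain in its long form, stood at 74.1 ± 3.65 FPKM in Foxd1-Cre against 38.4 ± 7.57 and rose by 0.95 ± 0.13 (limma adjusted p = 0.000411). In Six2-Cre its rise of 0.27 (0.0268) was lost when any single library other than wild type 9 was left out (adjusted p 0.0609 to 0.0858). Corin, a membrane-bound protease with such domains, stood at 1.01 ± 0.141 FPKM in Foxd1-Cre against 0.127 ± 0.0312. Mfrp, the membrane Frizzled-related protein, stood there at 1.6 ± 0.439 against 0.709 ± 0.224 FPKM. Cpz, a carboxypeptidase, stood at 1.81 ± 0.653 against 0.679 ± 0.181 FPKM in Foxd1-Cre and at 1.33 ± 0.22 against 0.439 ± 0.0734 in Six2-Cre.

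The targets of the pathway gave the scale against which the receptor changes can be read. Of 23 listed targets of beta-catenin, 22 passed the filter, and 16 rose and 1 fell in Foxd1-Cre (median log2 change 0.93) and 12 rose and 3 fell in Six2-Cre (1.09). The shares over all genes were 8.45% risen and 4.82% fallen in Foxd1-Cre, and 7.93% and 5.84% in Six2-Cre. Rnf43, Znrf3 and Lgr5 are counted both here and among the turnover and trafficking genes. Notum, which strips Wnts of the lipid that Frizzleds bind, rose by 5.45 ± 0.12 in Foxd1-Cre (limma adjusted p = 1.77e-10) and 4.19 ± 0.17 in Six2-Cre (0.000149). Apcdd1, an inhibitor that binds Wnts and Lrp5, rose by 4.89 ± 0.10 (1.35e-10) and 2.86 ± 0.08 (8.33e-05). Dkk1 went opposite ways, with log2 changes of 2.54 ± 0.07 in Six2-Cre (limma adjusted p = 8.33e-05) and -0.45 ± 0.10 in Foxd1-Cre (0.0133). Fzd10, at 3.14 and 2.43, lay between Apcdd1 and Axin2 (2.63 ± 0.06 and 1.41 ± 0.09) in both mutants. As for Fzd3, Fzd5 and Fzd6, other annotated genes overlap Ror1, Reck, Tspan12, Ptk7, Rnf43, Shisa3, Wnt5a, Wnt2b, Wnt11, Col18a1, Corin, Mfrp, Notum, Axin2 and Nkd1, so their values are less certain.

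Markers of other cell types moved in the same libraries, and their part in the receptor changes was not tested. Beside the counts below, 8.45% of all genes rose and 4.82% fell in Foxd1-Cre, and 7.93% rose and 5.84% fell in Six2-Cre. In Six2-Cre, 11 of 15 nephron progenitor markers fell (median log2 change -0.87), with their summed FPKM at 332 to 340 against 574 to 641. Mural cell markers rose in 9 of 11 and fell in 1 (0.88; 177 to 196 against 112 to 120 FPKM), and neural and neural crest markers rose in 7 of 11 (1.17; 46.5 to 64.2 against 24.7 to 33.4), though Dbh, Prph and Th, among these 11, reached 1 FPKM in mutant libraries only. Erythroid markers fell in 8 of 9 and rose in 1, macrophage markers rose in 3 of 10, stromal markers rose in 6 of 16 and fell in 2, and committed nephron markers rose in 4 of 12 and fell in 4. In Foxd1-Cre, 6 of 15 progenitor markers fell (median log2 change -0.21; 531 to 592 against 637 to 755 FPKM), and of 16 stromal markers 5 rose and 6 fell. There 4 of 20 endothelial markers rose (median log2 change 0.2), with 11 higher and 0 lower at an unadjusted limma p under 0.05. Mural markers rose in 4 of 11, with 5 higher and 3 lower by that unadjusted count. Neural markers rose in 4 of 11 and fell in 1, with 5 higher and 1 lower unadjusted. Erythroid markers fell in 3 of 9, with 0 higher and 7 lower unadjusted. Committed nephron markers rose in 3 of 12 and fell in 5, 1 ureteric bud marker of 13 rose and 1 fell, and 0 of 10 macrophage markers were called by limma, with 2 higher at an unadjusted p under 0.05.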

How the data were processed

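The deposited table holds FPKM per Ensembl gene for 17 libraries of total RNA from dissected E12.5 mouse kidneys. Per the submitters' processing notes, the authors used bcl2fastq 2.17.1.14 and Salmon with GRCm38; how transcripts were summed to genes, the scaling of the FPKM, strand use and read counts are not given in the sources used here. Symbols came from a table of gene names (24189 identifiers matched, 243 did not). The members, lists and control sets were chosen with earlier results of these data known. Genes reaching 1 FPKM in 3 or more libraries, and above 0 somewhere in the comparison, were tested on log2(FPKM + 1) with limma 3.58.1 in R 4.3.3 (variance trend, two-sided, Benjamini-Hochberg over all genes, called at adjusted p under 0.05), after a check on simulated data. Each mutant was fitted with its own wild types. The difference between mutants is that of the 2 log2 changes, its variance being the sum of both, with degrees of freedom after Satterthwaite. Fzd9 failed the filter and was tested by exact permutation. Implied reads come from the step between low FPKM values of single-transcript genes of 1500 to 4000 bases, less 200 bases of length, and are approximate. Named genes are all members, up to 4 called genes with the smallest p-values of each pathway list in each comparison, Lrp5, Lrp6, Znrf3, Rnf43 and checks. Alternatives covered the pseudocount, filter, scaling, controls, limma settings, a replicate block and each library left out. Same-numbered Foxd1-Cre and wild-type libraries were not paired by label, and their deviations correlated at 0.022 to 0.099.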

Additional observations from a re-analysis of the deposited data

Results flagged for a closer look

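Fzd5 in wild type 6 stood at 0.801 FPKM, with the gap to the next library making up 0.692 of the range of the 6 wild types. Among 22 groups checked for such a library, chance gives about 1 in 20. Between the mutants, 3 members had a log2 change that differed by the test of the difference (limma-based, adjusted over all genes): Fzd7 by 0.48, Fzd8 by -0.55 and Fzd10 by 0.71, each as Foxd1-Cre minus Six2-Cre. Fzd7 was higher in 5 of 5 Foxd1-Cre libraries than in any of their wild types, Fzd8 in 3 of 3 Six2-Cre libraries, and Fzd10 in all 8 mutants. The mutants were sequenced in library sets of different depth, so the set and the lineage cannot be told apart in these differences beyond the use of wild types of the same set.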

How the results depend on the processing

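Fzd10, Fzd1 and Fzd7 in Foxd1-Cre kept their calls in all 23 alternatives, and Fzd10 in Six2-Cre in all 18. Of 618 alternative member values, 16 lost a call and 11 gained 1. The sign changed in 16, of which 0 were among the 207 alternatives of called values and 3 passed the threshold with the other sign (given below); the other 13 concern Fzd3, Fzd4, Fzd5 and Fzd6 and were called under neither setting. Fzd1 in Six2-Cre lost its call only with the replicate block and all 9 wild types (0.28, adjusted p = 0.166). The difference for Fzd10 also lost its call with a pseudocount of 0.1 (adjusted p = 0.0671) or 0.5 (0.0525), no filter (0.0547) or libraries rescaled to the same sum (0.0519). With all 9 wild types as controls, which mixes the library sets, genes called numbered 1234 in Foxd1-Cre, 6444 in Six2-Cre (2747 rose, 3697 fell) and 8505 for the difference, and members called 5 in Six2-Cre and 7 for the difference; the difference became -1.13 for Fzd3, -0.69 for Lrp6, -0.32 for Znrf3 and 0.32 for Ctnnb1 (-0.10 with own wild types), and Ctnnb1 in Six2-Cre -0.04. A joint fit of the 4 groups called 3638 genes in Six2-Cre. Leaving out 1 library gave 1423 to 1922 calls and 3 members in Foxd1-Cre, 907 to 1467 calls and 2 to 4 members in Six2-Cre, and 1036 to 1527 calls and 2 to 4 members for the difference. The replicate block for Foxd1-Cre called 1425 genes and 3 members; 0 of 5 Foxd1-Cre libraries correlated best with the wild type of their own number. No block could be formed between Six2-Cre 1 to 3 and wild types 7 to 9, which share no number; with all 9 wild types, the replicate block called 8388 genes and 6 members in Six2-Cre, with log2 changes of 1.27 for Fzd3, 0.5 for Fzd4, -0.02 for Col18a1, -0.23 for Ctnnb1, 0.05 for Lgr4, 0.73 for Lrp6, -0.02 for Shisa3, -0.27 for Tubb2a, -0.24 for Wnt11 and 1.05 for Znrf3. The causes of these shifts were not tested. The number of genes at 0 limits what can be seen of Fzd5, Fzd9 and Wnt7a in the second set.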
